A study of Homo sapiens with 12 samples.

Results

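The 10 genes described here report the output of the ERK pathway and were followed in osimertinib-tolerant lung adenocarcinoma cells: the Sprouty genes SPRY1, SPRY2 and SPRY4, the Sprouty-related genes SPRED1 and SPRED2, the ETS transcription factor genes ETV1, ETV4 and ETV5, and PHLDA1 and CCND1. They were chosen by name, through the gene symbol that the platform annotation gives each probe set. All 10 had 1 probe set each, out of 17687 named genes and 21448 probe sets. RNA came from the cell lines H1975 and PC-9, which the labels describe as lung adenocarcinoma lines with a mutated epidermal growth factor receptor. All cells had been kept in 0.5 µM osimertinib, an inhibitor of that receptor, for 1 week, and those alive at day 8 are the tolerant cells. In each line 3 arrays hold tolerant cells, and another 3 hold tolerant cells that survived a further 48 h in 100 µM SK-216, a drug that appears here under its code name only. The titles of the SK-216 samples call their starting cells tolerant, whereas the source names call them naive. Whether osimertinib was still present with SK-216 is not stated, and the labels describe no tolerant cells taken 48 h later without it, so SK-216 and the added time cannot be told apart. No cells without osimertinib were on the arrays used here, so all levels are those of cells that had survived the drug.

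Growth factor receptors switch on RAS, which drives the kinases RAF, MEK and ERK in turn. Active ERK raises a set of genes that both carry out and restrain its signal, and the level of their mRNA is widely read as a measure of pathway output. Sprouty and SPRED proteins are feedback inhibitors that act near RAS and RAF, the SPRED proteins by bringing neurofibromin, which turns RAS off, to the membrane. ETV1, ETV4 and ETV5 form the PEA3 group of ETS factors. The repressor Capicua (CIC) holds them down, and ERK relieves that repression. Cyclin D1, the product of CCND1, activates the kinases CDK4 and CDK6 to start the cell cycle, and PHLDA1 codes for a pleckstrin homology-like domain protein that rises with ERK activity.

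Values are log2 signals, so a difference of 1 is a doubling. Array medians lay between 6.56 and 6.62, and over all probe sets the replicate arrays had r from 0.993 to 0.995 with each other. To mark the level of genes that are not expressed, 348 olfactory receptor probe sets were used. Their median was 3.61 and their 95th percentile 5.06, a limit chosen after the data were seen. SPRY4 lay below it in all 4 groups by its mean, and the other 9 genes lay above it in all 4. The epithelial keratin genes KRT7, KRT8, KRT18 and KRT19 had group means from 12.63 to 16.72, whereas the lung lineage markers NKX2-1, NAPSA and SFTPB had group means from 3.40 to 5.19. The epithelial marker EPCAM had a mean of 8.18 in tolerant H1975 and 15.29 in tolerant PC-9 cells. For CDH1 these means were 7.58 and 11.95, and for MUC1 they were 8.79 and 7.57. Of the markers of other cell types, 3 of 5 leukocyte, 3 of 5 fibroblast and, in PC-9 alone, 2 of 4 endothelial genes lay above the limit. The leukocyte gene PTPRC, the endothelial gene PECAM1 and the fibroblast gene LUM lay below it in every group. With SK-216 in H1975, 4 of the 10 epithelial markers passed the test, beside 3.80% of all probe sets called in either direction. EPCAM rose by 0.77 and KRT7 by 0.33, and CDH1 fell by 1.55 and KRT8 fell by 0.24 on the log2 scale. The fibroblast gene COL1A1 fell by 0.96. The array means of the epithelial list went from a range of 9.51 to 9.73 to a range of 9.39 to 9.50, and those of the fibroblast list from 6.34 to 6.57 to 6.11 to 6.27. Their part in the results on ERK output genes was not tested. In such bulk RNA, fewer cells of a kind and less RNA per cell cannot be told apart.

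RefSeq promoter windows (build GRCh38.p14) were at hand for 7 of the 10 genes, 16 windows in all, and ETV4, ETV5 and CCND1 have no entry. The 250 bases before each start were searched on both strands for CCGGAA, a word bound by ETS factors such as the ETV group, for the AP-1 word TGACTCA, and for the 4 Capicua octamers TGAATGAA, TGAATGGA, TCAATGAA and TCAATGGA. No 2 of these words overlapped in a window. The ETS word stood in 6 of the 16 windows, from 4 genes, against 14.5% of all 35116 windows; 2 of the 6 are overlapping ETV1 windows that share 1 site. The Capicua octamer stood in 1 window, of ETV1, against 3.18% of all windows, and the AP-1 word in none of the 16, against 4.20%. SPRY4, SPRED1 and SPRED2 held none of these words in any window. SPRY1 has 2 windows, SPRY2 has 3 and ETV1 has 6, and not all of them hold a word. The windows below were picked from those that do. SPRY1 is shown because it rose with SK-216 in H1975. ETV1 was the only 1 of these 7 that was lower in tolerant PC-9 cells by the test. SPRY2 and PHLDA1 hold the same ETS word without a call in any comparison. Each window shown is 250 bases long and ends at the base before the start, and capitals mark the words found. SPRY1 lies at chr4:123398136-123398385 on the plus strand, with CCGGAA from 67 to 62 bases before the start. ETV1 lies at chr7:13991426-13991675 on the minus strand, with CCGGAA from 136 to 131 and TGAATGGA from 125 to 118 bases before the start. SPRY2 lies at chr13:80341127-80341376 on the minus strand. PHLDA1 lies at chr12:76031777-76032026, also on the minus strand, and its word is read on the opposite strand.
SPRY1: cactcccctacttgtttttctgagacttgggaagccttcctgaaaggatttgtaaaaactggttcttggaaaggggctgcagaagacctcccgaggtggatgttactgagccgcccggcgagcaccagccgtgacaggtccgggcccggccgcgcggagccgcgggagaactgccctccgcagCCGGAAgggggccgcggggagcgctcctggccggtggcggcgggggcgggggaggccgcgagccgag
ETV1: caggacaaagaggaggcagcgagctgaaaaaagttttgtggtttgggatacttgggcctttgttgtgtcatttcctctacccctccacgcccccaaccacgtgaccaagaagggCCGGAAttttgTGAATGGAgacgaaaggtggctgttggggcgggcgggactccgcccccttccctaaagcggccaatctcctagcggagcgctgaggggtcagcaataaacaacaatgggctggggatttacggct
SPRY2: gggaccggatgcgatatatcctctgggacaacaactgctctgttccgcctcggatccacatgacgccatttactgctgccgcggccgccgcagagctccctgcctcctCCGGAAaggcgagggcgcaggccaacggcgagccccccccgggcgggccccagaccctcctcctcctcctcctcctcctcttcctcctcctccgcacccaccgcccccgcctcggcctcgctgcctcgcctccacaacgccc
PHLDA1: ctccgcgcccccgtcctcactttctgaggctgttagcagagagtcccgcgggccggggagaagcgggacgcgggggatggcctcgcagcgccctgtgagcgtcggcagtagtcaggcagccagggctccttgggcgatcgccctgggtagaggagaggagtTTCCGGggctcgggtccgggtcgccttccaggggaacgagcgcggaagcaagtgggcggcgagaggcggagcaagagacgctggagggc

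In H1975 cells ETV5, CCND1 and SPRY1 rose with SK-216, and none of the 10 genes fell by the test, adjusted or not. ETV5 rose 2.04-fold, CCND1 1.73-fold and SPRY1 1.57-fold. The count of 3 rises among 10 stands beside 1.44% of all probe sets called higher, and 3.80% called in either direction (limma, adjusted p below 0.05 over all probe sets). The median change of the 10 genes was 0.35, against 0.01 over all probe sets. Of the 10 changes 9 were above 0, against 51.6% of all probe sets. Those 9 include SPRY4 at 0.02, which lay below the olfactory receptor limit and turned to -0.0074 with quantile normalization. In 5 of the 10 all SK-216 arrays lay above all tolerant arrays, as in 8.95% of all probe sets, and in 1, SPRED2, all lay below, as in 9.56%. In PC-9 cells none of the 10 genes was called by limma, beside 0.443% of all probe sets called in either direction. At an unadjusted p below 0.05, ETV1, ETV4, ETV5 and PHLDA1 were higher, 4 of 10 against 6.39% of all probe sets. The median change in PC-9 was 0.27, against a median of -0.00333 over all probe sets. Again 9 of 10 were above 0, against 49.5% of all probe sets. Those 9 include CCND1 at 0.03, which turned to -0.013 with quantile normalization. For ETV1, ETV4 and ETV5 all SK-216 arrays lay above all tolerant arrays, 3 of 10 against 8.21% of all probe sets.

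**Figure D1:**
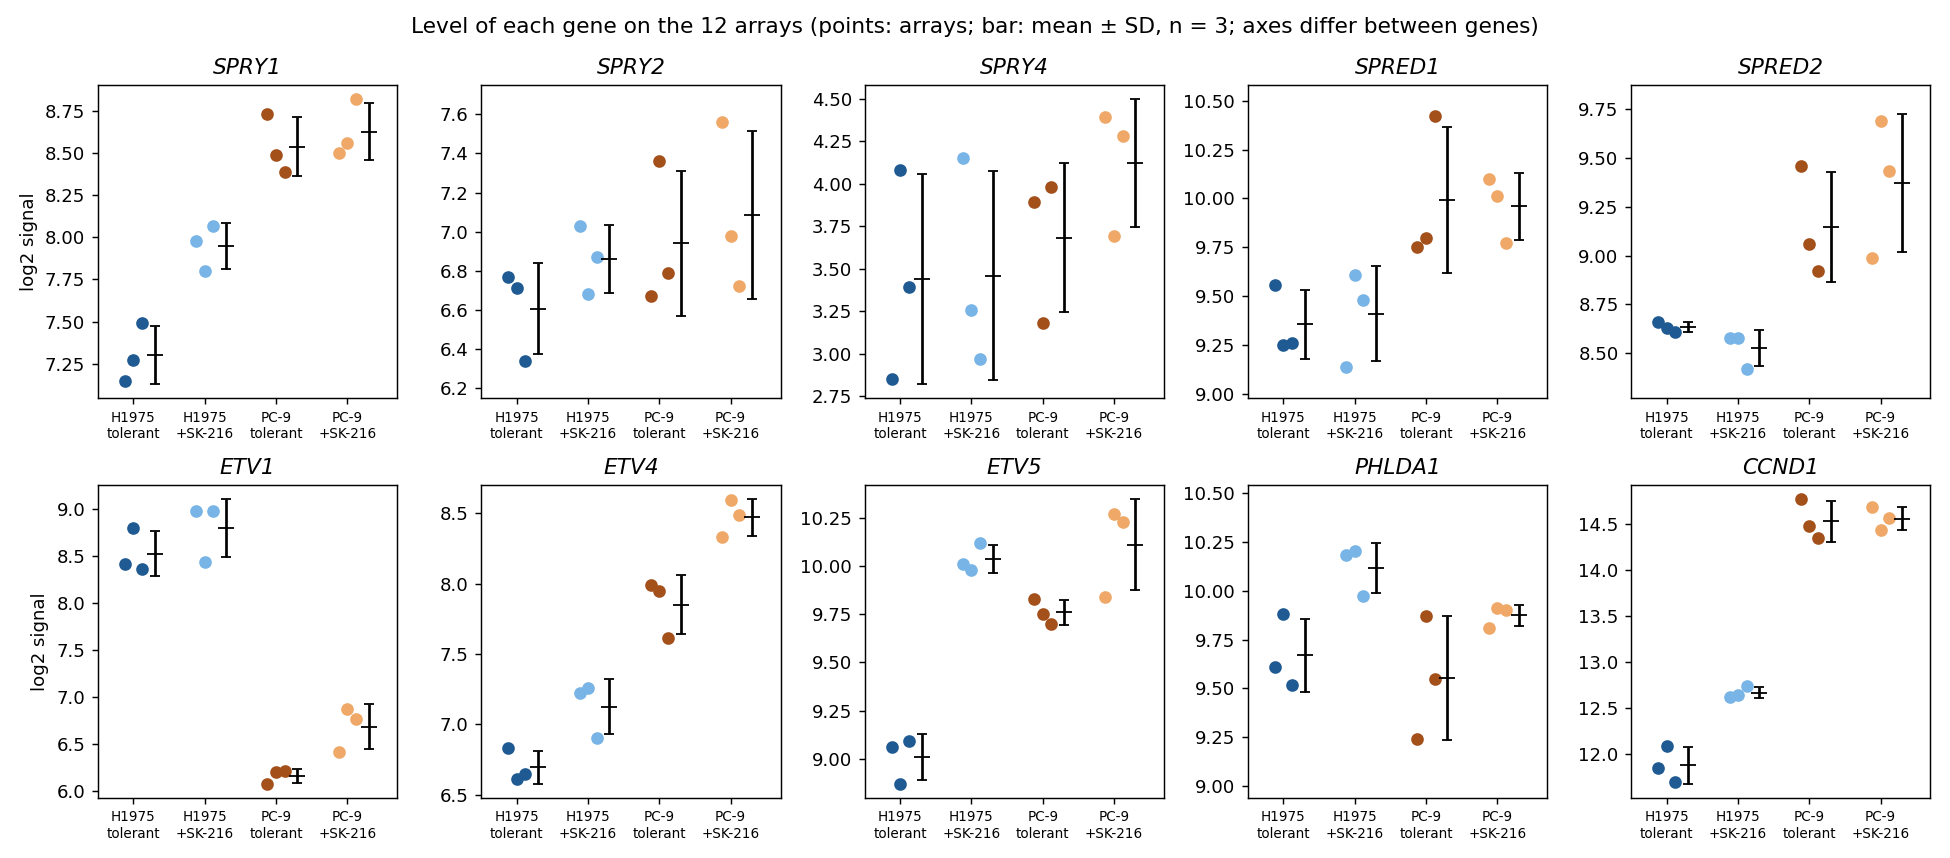
Log2 signal of each of the 10 genes on each array, by group, with the mean and SD (n = 3) beside the points; vertical axes differ between genes, and levels of different genes are not comparable. In H1975 the SK-216 arrays of ETV5 lie between 9.98 and 10.12, above tolerant arrays between 8.87 and 9.09, while CCND1 in PC-9 lies between 14.34 and 14.77 in both groups.

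ETV5 showed the largest SK-216 change of the 10 in H1975. Its log2 signal was 9.06, 8.87 and 9.09 on the tolerant arrays and 10.01, 9.98 and 10.12 on the SK-216 arrays. The groups stood apart by far more than their own spread, with a change of 1.03 ± 0.14 (SE of the fit, n = 3; limma adjusted p = 3.85e-05). In PC-9 ETV5 read 9.83, 9.75 and 9.70 in tolerant cells and 9.84, 10.27 and 10.23 with SK-216. There the SK-216 arrays were also all higher, the closest by 0.01, but the change of 0.35 ± 0.14 did not pass (limma adjusted p = 0.337). The change in PC-9 was smaller by 0.68 ± 0.20, a difference that missed the threshold too (limma adjusted p = 0.0918), with an unadjusted 95% interval from -1.08 to -0.27 for PC-9 minus H1975. Tolerant PC-9 cells started 0.75 ± 0.14 above tolerant H1975 cells (limma adjusted p = 6.78e-05), and with SK-216 the arrays of both lines overlapped.

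ETV4 was measured at 6.83, 6.61 and 6.65 in tolerant H1975 cells and at 7.22, 7.26 and 6.90 with SK-216. In PC-9 it read 7.99, 7.95 and 7.61 before and 8.33, 8.59 and 8.49 after. All SK-216 arrays were above all tolerant arrays in both lines, and the 4 groups did not overlap at all, in the order tolerant H1975, SK-216 H1975, tolerant PC-9, SK-216 PC-9. The change was 0.43 ± 0.18 in H1975 (limma adjusted p = 0.253) and 0.62 ± 0.18 in PC-9 (limma adjusted p = 0.171), neither past the test. It was the largest SK-216 change of the 10 in PC-9, and the difference between lines was 0.19 ± 0.26 (95% interval from -0.34 to 0.72).

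ETV1 differed between the lines and did not pass for SK-216 in either. It read 8.42, 8.80 and 8.36 in tolerant H1975 cells and 6.08, 6.20 and 6.21 in tolerant PC-9 cells. With SK-216 it read 8.98, 8.44 and 8.98 in H1975, overlapping the tolerant arrays, and 6.42, 6.87 and 6.77 in PC-9, above all of them. The changes were 0.27 ± 0.20 in H1975 (limma adjusted p = 0.603) and 0.52 ± 0.20 in PC-9 (limma adjusted p = 0.312). ETV1 was thus measured lower in PC-9 than in H1975, whereas ETV4 and ETV5, its 2 closest relatives, were higher there.

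SPRY1 was the Sprouty gene that rose, in H1975. It read 7.15, 7.27 and 7.49 in tolerant H1975 cells and 7.98, 7.80 and 8.07 with SK-216, with no overlap and a change of 0.65 ± 0.17 (limma adjusted p = 0.0304). That call ended with H1975 fitted alone (limma adjusted p = 0.0573). It also ended without tolerant H1975 array 1 (change of 0.57, limma adjusted p = 0.142) or 2 (0.63, 0.0929), and without SK-216 H1975 array 1 (0.63, 0.0950) or 3 (0.59, 0.123). In PC-9 SPRY1 read 8.73, 8.49 and 8.39 before and 8.50, 8.56 and 8.82 after, overlapping groups with a change of 0.09 ± 0.17 (95% interval from -0.26 to 0.44). The difference between the lines, -0.56 ± 0.24, did not pass (limma adjusted p = 0.326).

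SPRY2 and SPRY4 did not pass in either line. SPRY2 ran from 6.34 to 7.03 over the H1975 arrays and from 6.67 to 7.56 over the PC-9 arrays, and its groups overlapped, with changes of 0.25 ± 0.23 in H1975 and 0.15 ± 0.23 in PC-9. SPRY4 ran from 2.85 to 4.39 over all 12 arrays, the range of olfactory receptor probe sets. Its changes of 0.02 ± 0.30 in H1975, which turned to -0.0074 with quantile normalization, and 0.44 ± 0.30 in PC-9 are those of a probe set without signal above that level.

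The SPRED genes differed between lines and not by the test between treatments. SPRED1 read 9.56, 9.25 and 9.26 in tolerant H1975 cells and 9.14, 9.61 and 9.48 with SK-216, and in PC-9 it read 9.75, 9.80 and 10.42 before and 10.10, 10.01 and 9.77 after. Every PC-9 array was above every H1975 array, while the treatments overlapped within each line. The SK-216 changes were 0.05 ± 0.17 (95% interval from -0.30 to 0.41) and -0.03 ± 0.17 (from -0.39 to 0.33). SPRED2 read 8.66, 8.63 and 8.61 in tolerant H1975 cells and 8.58, 8.58 and 8.42 with SK-216, and 9.46, 9.06 and 8.92 against 8.99, 9.69 and 9.43 in PC-9. Its H1975 arrays were lower with SK-216 in each case, by a small amount that did not pass (-0.11 ± 0.17, limma adjusted p = 0.873), and the change in PC-9 was 0.22 ± 0.17.

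CCND1 rose in H1975 and not by the test in PC-9. It read 11.84, 12.08 and 11.69 in tolerant H1975 cells and 12.62, 12.64 and 12.73 with SK-216, a change of 0.79 ± 0.11 (limma adjusted p = 6.35e-05). In PC-9 it read 14.77, 14.47 and 14.34 before and 14.68, 14.43 and 14.56 after. The PC-9 arrays overlapped, at a level above every H1975 array, with a change of 0.03 ± 0.11 that turned to -0.013 with quantile normalization and a 95% interval from -0.20 to 0.26. CCND1 was the only 1 of the 10 whose change differed between the lines by the test, by -0.76 ± 0.16 for PC-9 minus H1975 (limma adjusted p = 0.0100), beside 1.42% of all probe sets called for that difference. The call held whichever of the 12 arrays was omitted (limma adjusted p at most 0.0430) and ended without the variance trend (limma adjusted p = 0.156).

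PHLDA1 read 9.61, 9.88 and 9.52 in tolerant H1975 cells and 10.18, 10.20 and 9.97 with SK-216. In PC-9 it read 9.24, 9.87 and 9.55 before and 9.81, 9.91 and 9.90 after. The SK-216 arrays of H1975 lay above the other 9 arrays, whereas in PC-9 tolerant array 2 overlapped the SK-216 arrays. The changes were 0.45 ± 0.15 in H1975 (limma adjusted p = 0.123) and 0.32 ± 0.15 in PC-9 (limma adjusted p = 0.450), neither past the test.

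Averaged over both lines in the same fit, a comparison added after the data were seen, ETV5, ETV4 and CCND1 rose with SK-216, 3 of 10 against 1.40% of all probe sets called higher. ETV5 changed by 0.69 ± 0.10 (limma adjusted p = 0.000122), ETV4 by 0.53 ± 0.13 (limma adjusted p = 0.0237) and CCND1 by 0.41 ± 0.08 (limma adjusted p = 0.00314). For CCND1 that mean joins changes that differed between the lines, and its call ended without the variance trend (limma adjusted p = 0.0876). The ETV4 call ended in 6 of the 12 fits that left out 1 array: tolerant H1975 array 2, SK-216 H1975 arrays 1 and 2, tolerant PC-9 array 3, and SK-216 PC-9 arrays 2 and 3, with adjusted p from 0.0552 to 0.0730 and changes from 0.47 to 0.52.

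**Figure D2:**
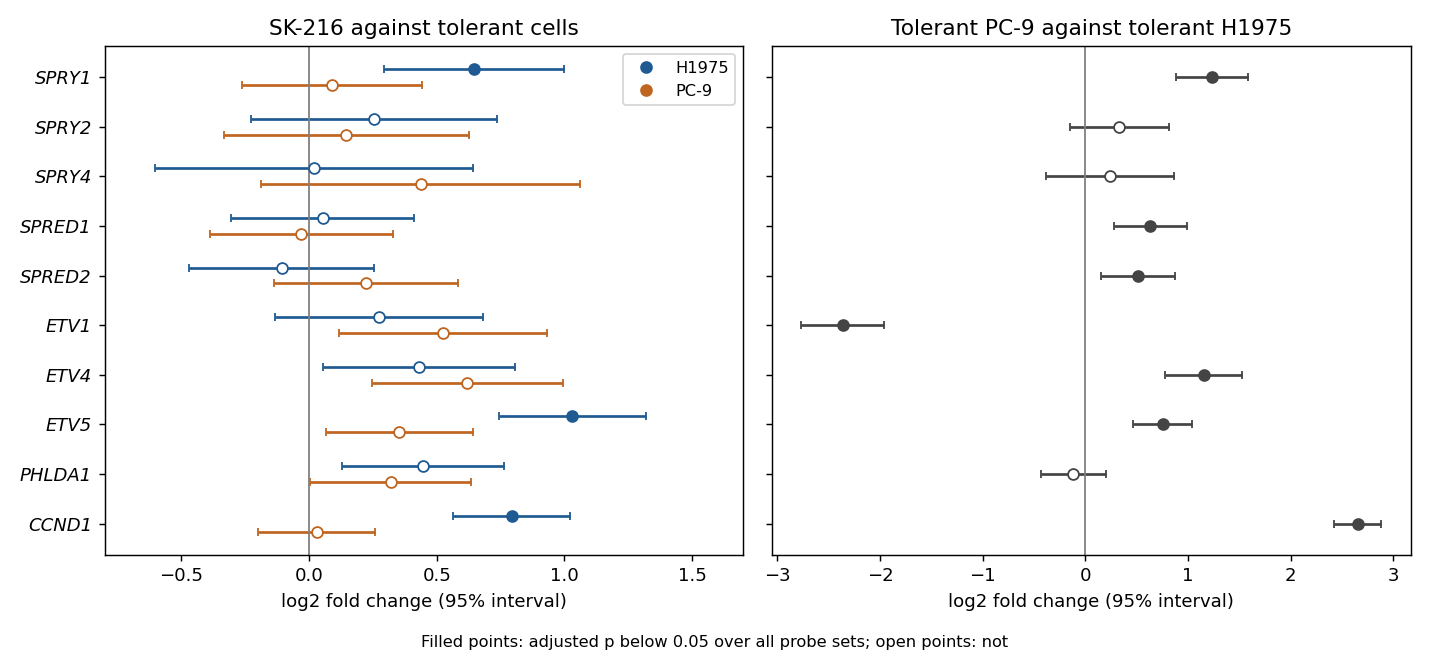
Log2 fold change with its unadjusted 95% interval for SK-216 in each line (left) and for tolerant PC-9 against tolerant H1975 cells (right). Filled points passed at an adjusted p below 0.05 over all probe sets: 3 genes in H1975, none in PC-9, and 7 between the lines.

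The tolerant cells of the lines differed in 7 of the 10 genes. In PC-9, 6 were higher, beside 21.3% of all probe sets called higher, and 1 was lower, beside 22.7% called lower. CCND1 was higher by 2.66 ± 0.11 (limma adjusted p = 5.90e-16), SPRY1 by 1.23 ± 0.17, ETV4 by 1.15 ± 0.18, ETV5 by 0.75 ± 0.14, SPRED1 by 0.63 ± 0.17 and SPRED2 by 0.51 ± 0.17. ETV1 was lower, at -2.36 ± 0.20 (limma adjusted p = 2.77e-10). The call of SPRED1 ended without tolerant PC-9 array 3 (change of 0.42, limma adjusted p = 0.0524) and that of SPRED2 without tolerant PC-9 array 1 (0.36, limma adjusted p = 0.132). SPRY2, SPRY4 and PHLDA1 did not pass, at 0.33 ± 0.23, 0.24 ± 0.30 and -0.12 ± 0.15. With 1 line on each side, which of the lines' many differences goes with these levels cannot be told apart.

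Other genes that ERK is known to induce were taken from a list of 13, all with a probe set. EPHA4 lay below the olfactory receptor limit of 5.06 in H1975, with a mean of 4.74 in both groups. It is among the genes called higher in tolerant PC-9 cells. In H1975, 4 rose and none fell by the adjusted test, beside 1.44% of all probe sets called higher, with a median change of 0.17 against 0.01 over all probe sets. At an unadjusted p below 0.05, 6 were higher and 1 was lower, beside 3045 of all 21448 probe sets in either direction. The 1 that was lower was the immediate early transcription factor gene EGR1 (-0.39 ± 0.16, limma adjusted p = 0.217). FOSL1, an AP-1 subunit, rose by 1.67 ± 0.16 (limma adjusted p = 3.36e-07), and IER3, an early response gene, by 0.61 ± 0.07 (limma adjusted p = 1.60e-06). DUSP4, a phosphatase that inactivates ERK in the nucleus, rose by 0.68 ± 0.15 (limma adjusted p = 0.00694). Its call ended without tolerant H1975 array 1 (change of 0.50, limma adjusted p = 0.0720) or SK-216 H1975 array 1 (0.58, 0.0563). MYC, a growth-promoting transcription factor, rose by 0.37 ± 0.10 (limma adjusted p = 0.0329), a call that ended in 5 of the 12 fits that left out 1 array, those without any tolerant H1975 array or without SK-216 H1975 array 1 or 3 (adjusted p from 0.0659 to 0.168). It also ended when no variance trend was used (0.225) or the arrays were quantile normalized (0.0618). In tolerant PC-9 cells 7 of the 13 were higher than in tolerant H1975 cells and 2 were lower, beside 21.3% and 22.7% of all probe sets, with MYC at -4.47 ± 0.10 (limma adjusted p = 4.03e-21).

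In PC-9 none of those 13 was called by limma, beside 0.443% of all probe sets. At an unadjusted p below 0.05, MYC, HMGA2 and DUSP6 were higher, 3 of 13 against 6.39% of all probe sets, and their median change was 0.16. DUSP6, the cytoplasmic ERK phosphatase, read 5.89, 6.32 and 6.07 in tolerant H1975 cells and 6.35, 6.16 and 6.28 with SK-216. In PC-9 it read 6.15, 5.96 and 5.98 before and 6.72, 6.46 and 6.34 after, with no overlap there, and neither change passed (0.17 and 0.48). FOSL1 read 8.49, 8.82 and 9.19 in tolerant H1975 cells and 10.35, 10.54 and 10.62 with SK-216, against 11.04, 10.68 and 10.86 before and 10.92, 11.38 and 11.17 after in PC-9. Like CCND1 it stood higher in tolerant PC-9 cells than in SK-216 H1975 cells, with no overlap. FOSL1 and IER3 were the 2 of the 13 whose change differed between the lines, by -1.37 ± 0.23 and -0.69 ± 0.09 for PC-9 minus H1975, beside 1.42% of all probe sets called. The IER3 call ended without the variance trend (limma adjusted p = 0.0916), and DUSP4 missed that test (limma adjusted p = 0.0612).

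Of 24 genes for the proteins that carry the signal to ERK, 16 were measured under a name here. Between the tolerant lines 8 of the 16 were higher in PC-9 and 3 lower, beside 21.3% and 22.7% of all probe sets. With SK-216 in H1975, EGFR, the receptor that osimertinib inhibits, was the 1 that rose by the adjusted test, beside 1.44% of all probe sets. Its change was 0.52 ± 0.12 (limma adjusted p = 0.0141). That call ended without tolerant H1975 array 3 (change of 0.44, limma adjusted p = 0.0897), SK-216 H1975 array 3 (0.44, 0.0939) or the variance trend (0.0990). The median change of the 16 was -0.00667 in H1975 and -0.06 in PC-9, where limma called none and 1 was lower at an unadjusted p below 0.05, NF1, the gene of neurofibromin (-0.29). Of 6 genes that control the ETV factors, namely CIC, its partners ATXN1 and ATXN1L, and the ubiquitin ligase genes COP1, DET1 and FBXW7, limma called none for SK-216 in either line, and 0 of the 6 had an unadjusted p below 0.05. Their changes ran from -0.10 to 0.09 in H1975, and those in PC-9 ran from -0.22 to 0.02. CIC lay below the olfactory receptor limit of 5.06 in both H1975 groups, with means of 4.98 and 5.05 with SK-216. In PC-9 its means were 5.43 and 5.44, near the limit. The lack of a CIC call is thus that of a probe set with little or no signal above that level.

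The paralogs SPRY3, SPRED3, CCND2, CCND3, PHLDA2 and PHLDA3 were not called by limma for SK-216 in either line (at an unadjusted p below 0.05, 0 of 6 in H1975 and 1 in PC-9, SPRY3), with H1975 changes from -0.05 to 0.32 and PC-9 changes from -0.60 to 0.25. SPRY3 was near the olfactory receptor level in tolerant H1975 cells, at 3.76, 3.48 and 3.89, and read 6.62, 6.91 and 6.68 in tolerant PC-9 cells. It was called higher in PC-9 (limma adjusted p = 2.13e-11), but the size of that difference is not given, since the H1975 arrays lay below the limit of 5.06. It read 5.93, 6.14 and 6.35 in PC-9 with SK-216, below all tolerant PC-9 arrays but with no call (-0.60).

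**Figure D3:**
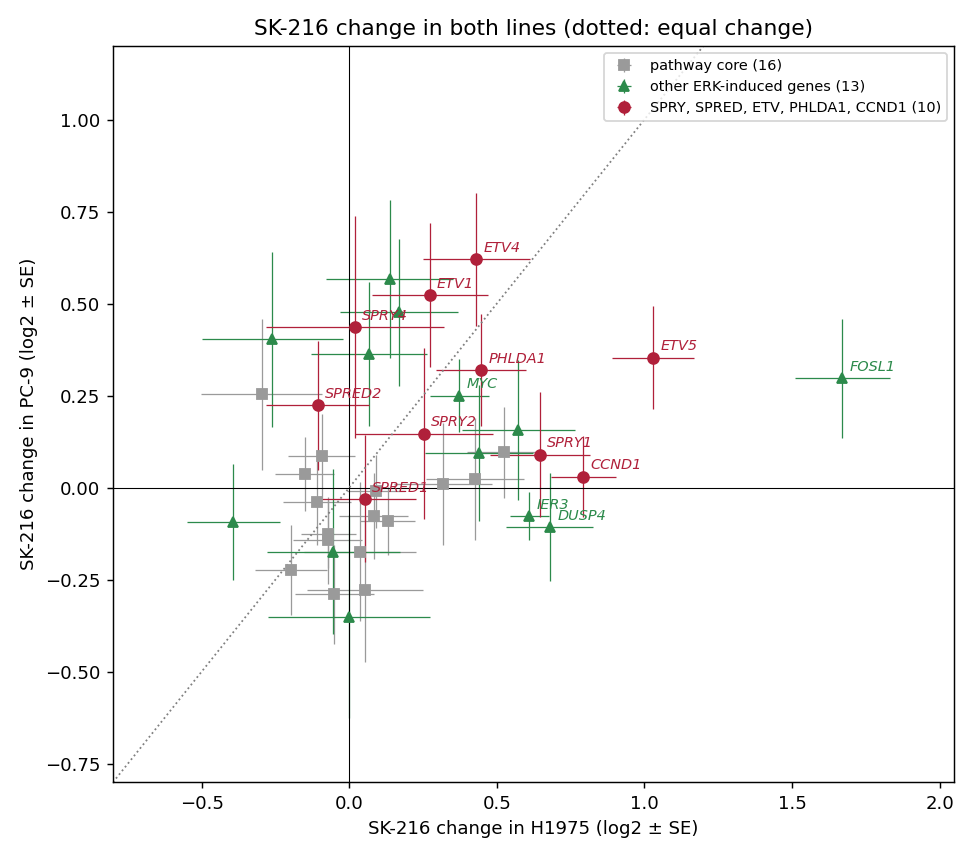
SK-216 change in PC-9 against that in H1975 (log2 ± SE) for the 10 genes, 13 other ERK-induced genes and 16 genes of the pathway core; the dotted line marks equal change. ETV5, CCND1, SPRY1, FOSL1, IER3 and DUSP4 lie below the line to the right, while ETV4 lies near it at 0.43 and 0.62.

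For the 7 genes with a call in a planned comparison, the gene with the most similar pattern was looked up among 17634 named probe sets outside these lists, as a description without a test. By level over the 12 arrays, which mostly reads the difference between the lines, CCND1 was most like SLC7A11, ETV1 most like XBP1, ETV4 most like DHCR7 and SPRY1 most like SLC2A1. Their r was 0.995, 0.991, 0.977 and 0.969. SPRED2 was most like C2orf76 (r = 0.962), SPRED1 most like SLTM (r = 0.947) and ETV5 most like SLC29A1 (r = 0.920). With each line centred on its own mean, which leaves SK-216 and the spread between arrays, ETV5 was most like UPP1 (r = 0.968), whose changes were 1.31 in H1975 and 0.61 in PC-9. CCND1 was then most like DESI2 (r = 0.966), SPRED1 most like MXD3 (r = 0.965), ETV1 most like SLC26A1 (r = 0.950), SPRY1 most like ENTREP2 (r = 0.946), ETV4 most like THAP10 (r = 0.918) and SPRED2 most like MTOR (r = 0.892). In H1975 and PC-9, SLC26A1 changed by 0.24 and 0.47, ENTREP2 by 0.63 and 0.03, and THAP10 by 0.45 and 0.46. DESI2 changed by 0.42 in H1975 and 0 in PC-9, MXD3 by -0.03 in both, and MTOR by -0.04 and 0.29. A high r thus also arose where SK-216 changed little. How high the best r of so many probe sets would reach without a shared change was not tested.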

How the data were processed

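Total RNA of 12 samples, 250 ng each, was measured on a 1-colour whole-transcript array, per the labels' protocols. The deposited values are log2 signals, 1 per probe set and array, between 2.19 and 18.61. Per the submitters' processing notes, the tool was Transcriptome Analysis Console. The sources used here give no version, summarisation, normalization or build. No further normalization and no filter was applied. Arrays give no read depth, and 3 per group limit the precision. Of 21448 probe sets 17709 had 1 symbol, updated by Entrez identifier through a RefSeq table, and 3739 were unnamed here.

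The 12 arrays entered 1 linear model with a mean for each of the 4 groups (limma 3.58.1, R 4.3.3, lmFit, eBayes with a variance trend, 8 residual degrees of freedom). Tests were two-sided with Benjamini-Hochberg adjustment across the 21448 probe sets. A call was an adjusted p below 0.05. The fit was also run on simulated data, with independent normal noise of the variances it had estimated. Such data meet its assumptions by construction, so they cannot show whether these arrays do. Nothing in the labels says that replicates were separate cultures, so the spread behind the p-values may be a technical one. Members, lists and the rule for named genes (all members, called list genes, the most similar gene per called member) were chosen with earlier results of these data known. DUSP6, EGR1, EPHA4, ERBB3, HMGA2, NF1, SPRY3 and the marker genes were named after their values were seen. Alternatives were eBayes without a trend or robust, lines fitted alone, a replicate block, quantile normalization, dropping the 30% dimmest probe sets, median centring, array weights, and leaving out each array. Figures were drawn with matplotlib 3.10.9.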

Additional observations from a re-analysis of the deposited data

Results flagged for a closer look

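The SK-216 changes of 3 genes differed between the lines by the test of that difference. For CCND1 the change in PC-9 minus that in H1975 was -0.76 on the log2 scale (limma adjusted p = 0.0100), and it ended without the variance trend (limma adjusted p = 0.156). For FOSL1 it was -1.37 (limma adjusted p = 0.00132), and it held under every alternative run. For IER3 it was -0.69 (limma adjusted p = 0.000118), a call that ended without the variance trend (limma adjusted p = 0.0916). All 3 rose in H1975, and in PC-9 none was called, with tolerant PC-9 levels above those of SK-216 H1975 cells in the group mean of each.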

How the results depend on the processing

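Of 979 values of single genes under the alternatives, 928 kept their direction and side of the threshold, 30 lost their call and 21 changed sign. Among these, list genes and the mean of both lines entered only where called in the main fit, so a gained call could not show there. For that mean 1 further member was called with the dimmest 30% of probe sets left out, without tolerant H1975 array 2, or without tolerant PC-9 array 2. The number of ERK output genes called ran from 2 to 3 of 10 for SK-216 in H1975 over the fits that left out 1 array, stayed at 0 in PC-9, stayed at 1 for the difference, ran from 6 to 7 for the lines and from 2 to 4 for the mean of both lines. Without the variance trend the count for the difference was 0. With a replicate block within each line 2 genes were called in H1975, SPRY1 being lost (adjusted p = 0.0600), 0 in PC-9 and 1 for the difference, and among the other genes MYC was lost (adjusted p = 0.0622). Same-numbered arrays of a line correlated in their deviations at r between -0.09 and 0.03, so the numbers are not taken to pair samples. Over all probe sets, 814 were called in H1975, 95 in PC-9, 304 for the difference and 582 for the mean. Without the trend these were 448, 18, 99 and 228, and 58 were called in PC-9 with the block. Leaving out 1 array gave 545 to 918 in H1975 and 30 to 104 in PC-9, 30 without SK-216 PC-9 array 2, 46 without tolerant PC-9 array 3, and 60 and 59 without SK-216 PC-9 arrays 1 and 3.

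Each of the 21 changes of sign concerned a value with no call, and the cause was not tested. With quantile normalization SPRY4 in H1975 was at -0.0074 and CCND1 in PC-9 at -0.013. Leaving out 1 array, SPRY4 in H1975 ran from -0.33 to 0.34, SPRED1 in H1975 from -0.047 to 0.19 and in PC-9 from -0.15 to 0.19, CCND1 in PC-9 from -0.063 to 0.15, SPRY2 in PC-9 from -0.09 to 0.36 and SPRY1 in PC-9 from -0.0067 to 0.19. For the difference, SPRY2 ran from -0.34 to 0.10, SPRED1 from -0.22 to 0.13 and PHLDA1 from -0.28 to 0.032, and between the lines SPRY4 ran from -0.052 to 0.56 and PHLDA1 from -0.28 to 0.04.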
